A study of Mus musculus with 4 samples.

Results

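The comparison described here is that of young mice with and without deletion of Tfeb, read across the cells of the proximal tubule. Its members are cell barcodes of the young Tfeb fl/fl library and of the young Tfeb fl/fl KAP library with at least 1000 genes, at most 50% of counts from mitochondrial genes, and at least 5 unique molecules (UMIs) of Slc34a1 plus Slc7a13 per 10000. Slc34a1, the phosphate transporter of the early tubule, and Slc7a13, an amino acid transporter of its last segment, thus chose the cells and are not results. The gate held 4354 barcodes of the control and 3590 of the KAP library, 7944 of the 19485 young barcodes that passed the filters and of 32407 in all 4 libraries. For each gene the counts of all gated barcodes of a library were summed and scaled to a total of 1000000 (CPM).

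The series is a single-cell study of the renal cortex of male mice, with 1 library for each of 4 conditions, each made from tissue of 2 or 3 mice pooled before digestion. Young mice were 6 weeks and aged mice 24 months old. All carried the floxed Tfeb allele on both chromosomes, the controls included, so the deleted animals differed from the controls by the KAP transgene. This transgene drives Cre recombinase from the promoter of Kap, the kidney androgen-regulated protein gene, which is active in the proximal tubule of males and which the study describes as specific to its S3 segment. With 1 library per condition no p-value can be given. Every ratio below is the log2 ratio of KAP over control, with a 95% exact interval that covers counting error only and not the spread between mice.

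TFEB is a basic helix-loop-helix transcription factor of the MiT/TFE family, held in the cytoplasm by mTORC1 when nutrients are plentiful and released to the nucleus by starvation or lysosomal damage. There it binds E-box sequences in the promoters of genes for lysosomal enzymes, the lysosomal proton pump and autophagy, and it also acts on lipid breakdown. Proximal tubule cells reabsorb and degrade filtered protein in lysosomes and live largely on fatty acid oxidation.

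As a reference in which the Kap promoter is not known to be active, the same ratio was taken in barcodes of the thick ascending limb and distal convoluted tubule (Slc12a1 plus Umod at least 40, or Slc12a3 at least 5, per 10000), of which there were 3775 in the control and 2440 in the KAP library. Both gates took 331 and 143 barcodes in common. Near the limit, 55 and 20 barcodes lay between 5 and 6 per 10000 and 69 and 29 between 4 and 5. The gated barcodes made up 39.5% (38.6 to 40.4) of the passing barcodes in the control and 42.4% (41.3 to 43.5) in the KAP library (exact binomial intervals), with median depths of 16746 and 15964 UMIs. The 10 genes of a proximal tubule identity list, Slc34a1 among them, summed to 11018 CPM in the control and 12375 CPM in the KAP gate, against 638 CPM and 535 CPM in the reference. Between the young libraries 4 barcode sequences occurred in both gates.

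The deposited counts had been corrected for background RNA, and this correction differed between the libraries. It left entries stored at 0 where there had been a count, 2.60% of all stored entries of the gate in the control and 10.8% in the KAP library. Some results that rest on low counts or on transcripts of other cells are therefore also given with each such entry counted as 1 UMI. Others are given only as deposited. The setting was added after the data had been seen. It restores the least that can have been there.

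Tfeb itself was sparse in both young libraries. Across the whole proximal tubule gate it had 639 UMIs in the control and 480 in the KAP library, 8.19 and 7.14 CPM, a log2 ratio of -0.20 (-0.37 to -0.03). In the reference gate Tfeb was more abundant, at 16.9 CPM in the control and 18.6 CPM in the KAP library, with a ratio of 0.13 (-0.02 to 0.29). Since only 3′ ends were read, and these can come from outside the floxed exons, the remaining counts do not measure working Tfeb.

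Inside the gate, the lower Tfeb ratio went with Kap. This transcript split the gate into 2568 control and 1999 KAP barcodes with at least 10 Kap UMIs per 10000 (Kap-high, 59.0 and 55.7% of the gate) and 1786 and 1591 with fewer (Kap-low). Few lay near the split, 157 and 84 between 5 and 20 per 10000, and Kap was at 0 in 1526 and 1455. Of the stored Kap entries in Kap-low barcodes, 85.1 and 91.5% were at 0 through the background correction, so the split also rests on it. In Kap-high barcodes Tfeb was 7.60 CPM in the control and 5.41 CPM in the KAP library, a ratio of -0.49 (-0.74 to -0.24). In Kap-low barcodes it was 9.23 CPM and 9.48 CPM, a ratio of 0.04 (-0.21 to 0.29). Within the Slc7a13 arm, the 708 and 576 barcodes with at least 5 Slc7a13 UMIs per 10000, Tfeb was 6.18 CPM and 3.97 CPM, a ratio of -0.64 (-1.15 to -0.14).

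These Tfeb ratios depended on the background correction. Of the stored Tfeb entries in the gate, 4.21% were at 0 in the control and 19.6% in the KAP library, and in Kap-high barcodes 4.01 and 27.3%. Counting only stored entries, Tfeb had been seen in 13.6% of gated control barcodes and 14.2% of gated KAP barcodes, and above 0 it was left in 13.1 and 11.4%. With each entry at 0 counted as 1, the whole gate had 8.47 CPM of Tfeb in the control and 8.45 CPM in the KAP library, a ratio of 0.00 (-0.17 to 0.16). In the same setting Kap-high barcodes had a Tfeb ratio of -0.16 (-0.39 to 0.06), the Slc7a13 arm -0.38 (-0.85 to 0.08), Kap-low barcodes 0.12 (-0.12 to 0.36) and the reference 0.20 (0.05 to 0.35). The order of these 5 Tfeb ratios stayed, but the intervals of the whole gate, the Kap-high barcodes and the Slc7a13 arm then included 0.

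**Figure D1:**
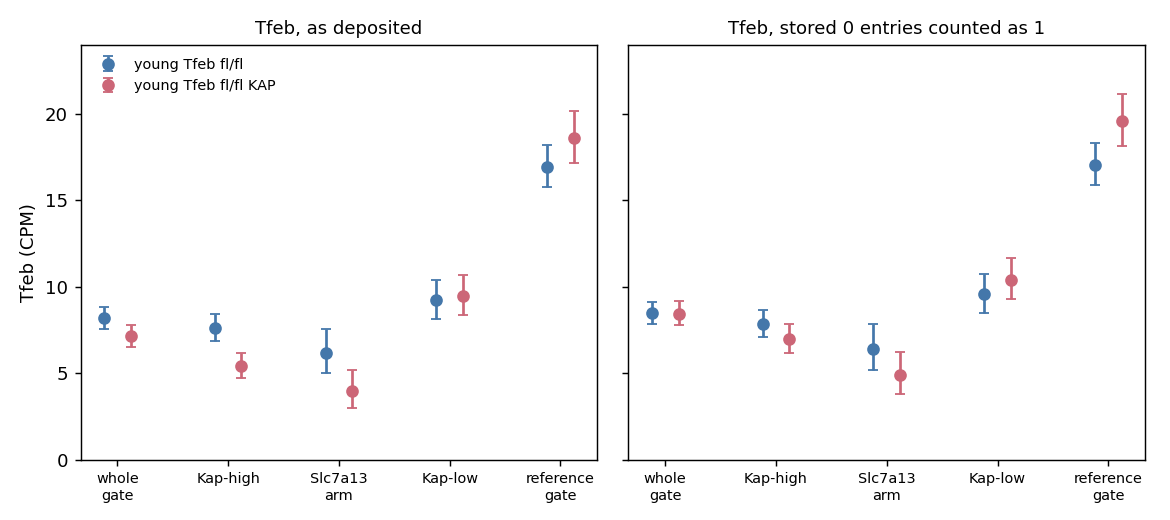
Tfeb in CPM in the young control and young KAP libraries for 5 sets of barcodes, as deposited (left) and with stored entries at 0 counted as 1 (right). Points are summed counts of 1 library and bars are exact Poisson intervals. As deposited, the KAP point lies below the control in the Kap-high barcodes (5.41 against 7.60) and above it in the reference gate (18.6 against 16.9).

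Of the other family members, Tfe3, which shares targets with TFEB, was at 8.64 CPM in the control and 9.79 CPM in the KAP library, a ratio of 0.18 (0.02 to 0.34), beside 0.22 in the reference. Mitf, the member best known from pigment cells, was at 11.1 CPM and 8.52 CPM, a ratio of -0.38 (-0.53 to -0.22), and it was far more abundant in the reference, at 64.9 CPM and 63.7 CPM. Tfec was mainly a transcript of the proximal tubule gate, at 35.9 CPM and 37.8 CPM with a ratio of 0.08 (-0.0022 to 0.15), against 1.95 CPM and 1.64 CPM in the reference.

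Most genes of the young proximal tubule were alike in both libraries. Of 7027 genes with a mean of at least 10 CPM, 81.4% lay within 0.25 of a ratio of 0, and the median ratio was -0.02. Past a ratio of 0.5, 65 genes (0.925%) were higher and 151 (2.15%) lower in the KAP library. This balance depended on the processing. With entries at 0 counted as 1 it turned to 98 higher and 79 lower. At a mitochondrial share of at most 20% 441 genes were lower. Counts in such changed settings, here and below, are given without the number of genes tested, which can differ. In the reference gate 40 of 7710 genes (0.519%) were past it upwards and 94 (1.22%) downwards. Both gates come from the same 2 libraries, so a ratio of a like size in both is not specific to the proximal tubule.

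The lowest ratios belonged to transcripts of other tubule segments. Among genes of at least 50 CPM, the 12 lowest included Wfdc15b, the antimicrobial peptide gene Defb1, the calcium-binding Calb1 and S100g of the distal tubule, Mal, Wfdc2, the growth factor gene Egf, the sodium-potassium-chloride cotransporter gene Slc12a1 of the thick limb, and the kallikrein gene Klk1. Wfdc15b was at 79.5 CPM in the control and 25.9 CPM in the KAP library, a ratio of -1.62 (-1.70 to -1.54). Calb1 was at 150.0 CPM and 54.6 CPM, a ratio of -1.46 (-1.51 to -1.40). In the reference gate, where these genes belong, the ratio of Wfdc15b was 0.08 and that of Calb1 -0.37.

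For these transcripts the correction had acted strongly and unequally. Stored entries at 0 made up 71.8% of the Calb1 entries of the gate in the control and 98.3% in the KAP library, 54.6 and 97.5% for Wfdc15b, and 84.2 and 99.2% for S100g. Barcodes with a stored Calb1 entry of any kind were 46.3% of the control and 75% of the KAP gate, the reverse order of the corrected counts. With entries at 0 counted as 1 the Wfdc15b ratio was -0.66 and the Calb1 ratio -0.87. The ratios of these transcripts thus changed with how such entries were counted. How much of each ratio the correction carries was not tested. In Kap-high barcodes S100g was at 634.6 CPM in the control and 0.285 CPM in the KAP library, and in Kap-low barcodes it was at 645.8 CPM and 650.1 CPM. Barcodes of the highest doublet scores in the gate were 572 in the control and 284 in the KAP library. Without them, the ratio of S100g over the gate was 0.30 in place of -1.21. How much of the other ratios doublets carry was not tested.

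The remaining 3 of the 12 lowest were AY036118 and Gm42418, transcripts that overlap ribosomal RNA repeats, and Txnip, the thioredoxin-interacting protein gene. Gm42418 was at 2701 CPM in the control and 1160 CPM in the KAP library in the gate and at 2074 CPM and 556 CPM in the reference, so that it was lower in both. AY036118 had ratios of -1.60 in the gate and -3.37 in the reference. Stored Gm42418 entries at 0 were 0.253% in the control and 67.9% in the KAP library in the gate, and 0.186 and 83.6% in the reference. For AY036118 they were 5.66 and 71.0% in the gate and 9.56 and 94.9% in the reference. How much of these ratios the background correction carries was not tested. Txnip, which glucose induces, was at 93.1 CPM and 43.1 CPM, a ratio of -1.11 (-1.17 to -1.05), and -0.66 with entries at 0 counted as 1.

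Among the 12 highest ratios, chaperones and the endoplasmic reticulum stood out. Hsph1, a cytosolic chaperone of the heat shock response, was at 68.2 CPM in the control and 118.3 CPM in the KAP library, a ratio of 0.79 (0.74 to 0.84), beside 0.24 in the reference. Manf, a factor secreted under stress of the endoplasmic reticulum, was at 179.3 CPM and 309.3 CPM, a ratio of 0.79 (0.76 to 0.82), beside 0.73 in the reference. Hspa5, the main chaperone of that compartment, was at 364 CPM and 622 CPM, a ratio of 0.77 (0.75 to 0.79), beside 0.63. Xbp1 and Chordc1 were also among the 12, with ratios of 0.63 and 0.67.

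Also among the 12 highest were the BMP-induced regulators Id1 and Id3, the ornithine decarboxylase gene Odc1, Ly6e, the carbonic anhydrase gene Car3 and Gm26917. Id3 was at 41.9 CPM in the control and 72.1 CPM in the KAP library, a ratio of 0.78 (0.72 to 0.85), beside 0.12 in the reference. Id1 was at 39.3 CPM and 62.0 CPM, a ratio of 0.66 (0.59 to 0.72), beside -0.17 in the reference. Both ratios were higher in Kap-high barcodes, at 1.11 for Id3 and 1.04 for Id1, than in Kap-low ones, at 0.50 and 0.30. Their levels were lower in Kap-high barcodes. Id3 was there at 15.6 CPM in the control and 33.7 CPM in the KAP library, against 87.5 CPM and 123.9 CPM in Kap-low ones. Id1 was at 20.8 CPM and 42.8 CPM, against 71.5 CPM and 87.9 CPM. In Kap-high barcodes, however, stored entries at 0 were 36.8% in the control and 58.1% in the KAP library for Id3. For Id1 they were 26.3 and 40.7%. In the reference gate stored entries at 0 were 10.9 and 39.3% for Id3 and 31.5 and 63.9% for Id1. How far background RNA enters any of these ratios was not tested. Car3 had a ratio of -2.10 (-2.90 to -1.38) in the Slc7a13 arm, against 0.77 over the gate. It was scarce in that arm, at 6.11 CPM in the control and 1.42 CPM in the KAP library. In Kap-high barcodes it was at 6.18 CPM and 4.89 CPM, a ratio of -0.34. Kap-low barcodes had 112.4 CPM and 174.0 CPM, a ratio of 0.63.

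**Figure D2:**
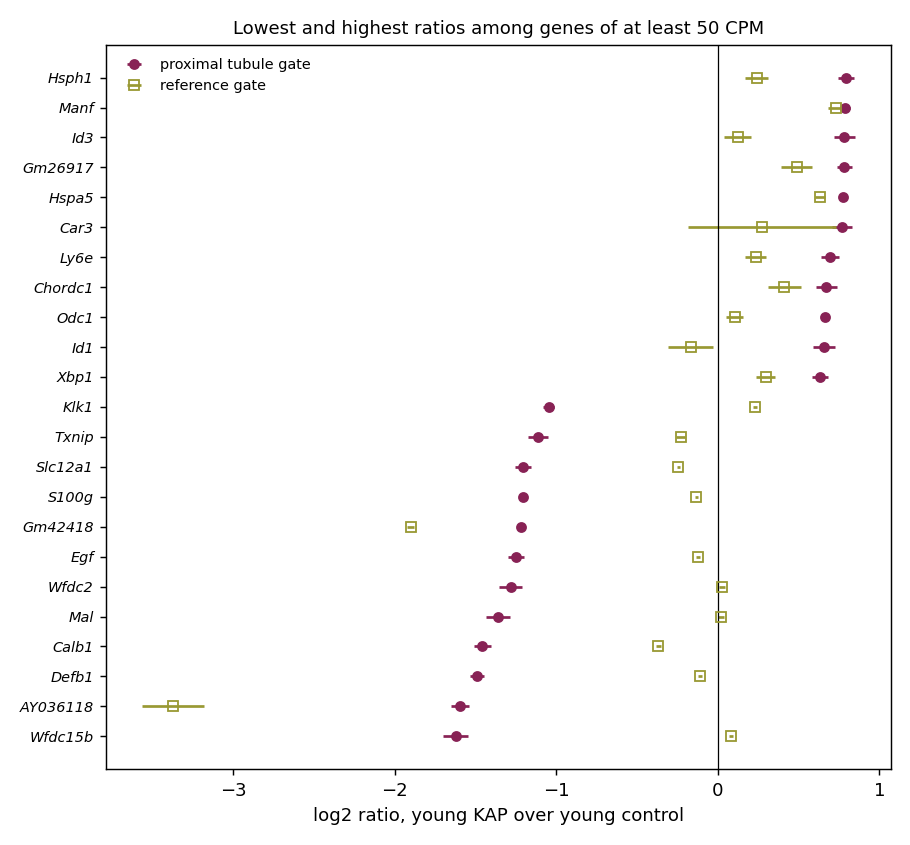
Log2 ratios of young KAP over young control for the 12 lowest and 11 of the 12 highest genes of at least 50 CPM in the proximal tubule gate (filled circles) and the same genes in the reference gate (open squares), with exact counting intervals. Transcripts of other segments such as Wfdc15b (-1.62 against 0.08) part the gates, while Manf (0.79 against 0.73) lies at nearly the same place in both.

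Where genes had to be well measured in both gates, at 50 CPM or more and with a reference level of at least 0.25 of that in the proximal tubule, the largest differences upwards against the reference were those of Gm42418, Id3, Hsph1, Ly6e, Enpp2, Dnajc19, Mkrn1 and Xbp1. Ly6e, a surface protein gene that interferon induces, was at 57.8 CPM and 93.7 CPM in the gate, a ratio of 0.70, beside 0.23 in the reference. Dnajc19, a mitochondrial import factor gene, was at 234 CPM and 334 CPM, a ratio of 0.51, beside 0.15. Enpp2, which encodes autotaxin, had ratios of 0.10 and -0.34, and Mkrn1 0.25 and -0.09. Gm42418 was lower in both gates, and Id3, Hsph1 and Xbp1 are given above. The 8 largest differences downwards were all among the transcripts of other segments above.

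All 12 heat shock genes were higher in the KAP library, with a median ratio of 0.51, beside 0.21 for the same list in the reference, where 11 of 12 were higher. Over all genes tested the medians were -0.02 in the gate and -0.05 in the reference. Of all genes tested, 46.7% were higher in the gate and 39.0% in the reference. The share was 48.6% in Kap-high barcodes, 40.6% in Kap-low barcodes and 48.3% in the aged gate. Counts of higher list members, here and below, stand beside these shares. The inducible chaperone gene Hspa1b was at 12.9 CPM and 38.7 CPM, a ratio of 1.59 (1.48 to 1.69), beside 0.19. Its partner Dnajb1 was at 27.5 CPM and 42.3 CPM and the constitutive Hspa8 at 1177 CPM and 1691 CPM, ratios of 0.62 and 0.52. The list was higher in both Kap-high barcodes, median 0.57, and Kap-low barcodes, median 0.48.

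The unfolded protein response moved likewise in both gates. All 16 measured members of its list were higher, 5 of them past 0.5, with a median of 0.34 beside 0.30 in the reference. Creld2, a chaperone-like protein of the endoplasmic reticulum, was at 20.9 CPM and 39.2 CPM, a ratio of 0.91 (0.82 to 1.0), beside 0.55 in the reference. Hspa5 and Manf were higher in Kap-low barcodes, with ratios of 0.91 and 0.93, than in Kap-high barcodes, with 0.62 and 0.57. Of the antioxidant genes, Hmox1, the heme oxygenase gene, was at 32.2 CPM and 54.1 CPM, a ratio of 0.75 beside 0.18, while its list had a median of 0.04.

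Immediate early genes, which rise within minutes of stimulation or tissue handling, went the other way. Fos was at 625.5 CPM in the control and 432.5 CPM in the KAP library, a ratio of -0.53 beside 0.07 in the reference. Zfp36 was at 253.5 CPM and 168.5 CPM, Egr1 at 278.7 CPM and 210.2 CPM and Fosb at 232.8 CPM and 188.0 CPM, ratios of -0.59, -0.41 and -0.31. Over the list 11 of 16 members were lower, with a median of -0.13, against 15 of 17 higher and a median of 0.41 in the reference. With entries at 0 counted as 1 the median of the list in the gate was 0.03.

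Genes of the lysosome, the best known targets of TFEB, differed little. Of 40 measured lysosomal hydrolases 24 were higher and 16 lower in the KAP library and none was past 0.5 either way, with a median of 0.11, beside 0.00 in the reference. Their summed level was 4656 CPM in the control and 4961 CPM in the KAP library. Hexa, a subunit of hexosaminidase, was at 25.9 CPM and 34.3 CPM, a ratio of 0.41 (0.32 to 0.49), and the cathepsin gene Ctsz at 118.6 CPM and 155.7 CPM, a ratio of 0.39 (0.35 to 0.43). Manba, for beta-mannosidase, was at 40.7 CPM and 31.4 CPM and Asah1, for acid ceramidase, at 46.1 CPM and 35.7 CPM, both with a ratio of -0.37, and in the reference they had -0.44 and -0.37. In the Slc7a13 arm the median of the hydrolases was -0.02, and in Kap-high barcodes it was 0.05.

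The lysosomal membrane and its pump were as even. Of 20 measured membrane genes 11 were higher, with a median of 0.01, beside -0.10 in the reference. Lamp2, a major membrane glycoprotein, was at 706.7 CPM and 625.5 CPM, a ratio of -0.18 beside -0.21. Slc36a1, an amino acid exporter of the lysosome, was at 61.9 CPM and 52.2 CPM, a ratio of -0.25 (-0.31 to -0.19) beside -0.05, and Tmem192 had a ratio of 0.20. Of 19 subunits of the proton pump (V-ATPase) 11 were higher, median 0.02, and Atp6ap2 had a ratio of -0.30 beside -0.27 in the reference. One subunit gene was past 0.5, Atp6v1g3, which belongs to intercalated cells, at 33.6 CPM and 8.46 CPM. Its ratio of -1.99 became -0.90 with entries at 0 counted as 1.

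Autophagy genes had 20 of 32 members higher and a median of 0.04, beside 0.03 in the reference. Map1lc3b, the lipidated marker of autophagosomes, was at 198.8 CPM and 219.9 CPM, a ratio of 0.15 beside 0.06, and the receptor gene Sqstm1 at 138.0 CPM and 151.6 CPM, a ratio of 0.14 beside 0.12. Nbr1, another receptor, had a ratio of -0.13. The genes of the Rag GTPases and mTORC1, which anchor TFEB at the lysosome, had 9 of 17 members higher and a median of 0.01, with Lamtor4 at 0.24 and Rheb at -0.17.

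The promoters of these 4 lists, lysosomal hydrolases, lysosomal membrane, V-ATPase and autophagy, were read for the motif TCACGTGA, the 8-base form of the E-box that TFEB is known to bind and which reads the same on both strands. The windows, from RefSeq on build GRCm38.p6, hold 250 bases before and 50 after the start and cover 27025 genes. The motif stood in 1.12% of all genes with a window, and in 15 of 112 such genes of the lists (13.4%), among them 7 of 22 lysosomal membrane genes. The shorter core CACGTG, which the longer motif contains, stood in 8.09% of all and 25% of the listed genes. Shown are the 4 genes that hold the 8-base motif and are among the 4 genes of largest absolute ratio in their list at 20 CPM or more, with the motif in capitals: Slc36a1 (chr11:55204090-55204389, plus strand) and Cd164 (chr10:41519250-41519549, plus strand), both lower in the KAP library, and Atp6v0d1 (chr8:105566015-105566314, minus strand) and Nrbf2 (chr10:67285232-67285531, minus strand), both higher.
Slc36a1: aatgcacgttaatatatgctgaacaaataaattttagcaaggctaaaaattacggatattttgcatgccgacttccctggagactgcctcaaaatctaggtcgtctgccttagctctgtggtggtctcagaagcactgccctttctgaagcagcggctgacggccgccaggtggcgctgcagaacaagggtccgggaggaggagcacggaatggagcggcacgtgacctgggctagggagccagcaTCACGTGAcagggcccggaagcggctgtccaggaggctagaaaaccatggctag
Cd164: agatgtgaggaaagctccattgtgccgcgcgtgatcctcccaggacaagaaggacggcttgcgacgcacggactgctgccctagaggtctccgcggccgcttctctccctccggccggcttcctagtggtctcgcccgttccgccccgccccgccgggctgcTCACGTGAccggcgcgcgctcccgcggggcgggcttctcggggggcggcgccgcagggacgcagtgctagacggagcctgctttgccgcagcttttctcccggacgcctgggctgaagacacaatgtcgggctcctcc
Atp6v0d1: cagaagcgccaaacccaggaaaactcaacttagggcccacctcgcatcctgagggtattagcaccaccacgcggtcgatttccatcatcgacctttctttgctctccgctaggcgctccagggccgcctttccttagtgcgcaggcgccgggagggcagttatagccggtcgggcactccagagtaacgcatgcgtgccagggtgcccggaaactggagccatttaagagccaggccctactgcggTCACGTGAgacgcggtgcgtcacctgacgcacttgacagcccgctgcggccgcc
Nrbf2: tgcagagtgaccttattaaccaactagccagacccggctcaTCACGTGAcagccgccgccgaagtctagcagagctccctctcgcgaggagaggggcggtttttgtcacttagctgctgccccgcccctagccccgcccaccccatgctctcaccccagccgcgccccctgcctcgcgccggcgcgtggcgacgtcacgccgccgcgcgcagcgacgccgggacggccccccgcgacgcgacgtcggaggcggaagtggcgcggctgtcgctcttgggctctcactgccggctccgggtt

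The motif begins 4 bases before the start in Slc36a1 and in Atp6v0d1, 88 before it in Cd164 and 209 before it in Nrbf2. Cd164, a sialomucin gene, was at 114.1 CPM and 100.9 CPM, a ratio of -0.18 (-0.22 to -0.13). Atp6v0d1, a pump subunit gene, was at 58.5 CPM and 69.4 CPM, a ratio of 0.25 (0.19 to 0.31). Nrbf2, which regulates the autophagy lipid kinase, was at 22.0 CPM and 24.1 CPM, a ratio of 0.13 (0.03 to 0.23). Slc36a1 and Atp6v0d1 thus hold the motif at the same place and had ratios of opposite sign. Of the 13 listed and measured genes with the motif, 9 were higher and 4 lower in the KAP library, with ratios from -0.25 to 0.25, none past 0.5. Their median of 0.13 stood beside 0.04 for the 74 measured genes of the lists whose windows lacked it, and in Kap-high barcodes the medians were 0.07 and 0.03. Ctsd and Ctsa, protease genes with the motif, had ratios of 0.19 and 0.24. Over all 156 measured genes with the motif the median was 0.01.

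**Figure D3:**
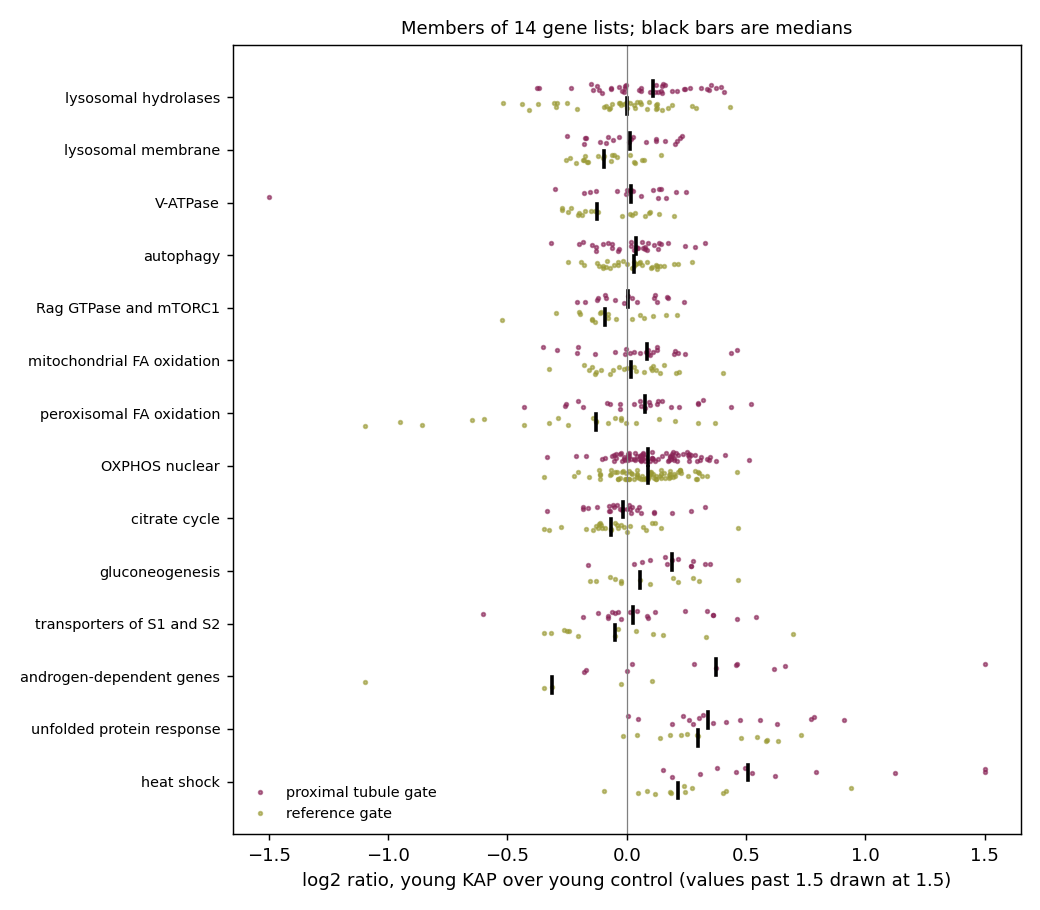
Log2 ratios of young KAP over young control for measured members of 14 gene lists in the proximal tubule gate (upper row of each pair) and the reference gate (lower row), each dot being a gene and black bars medians. The lysosomal and autophagy lists centre near 0 (medians 0.01 to 0.11 in the gate), and the heat shock list lies highest at a median of 0.51.

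Genes of fatty acid oxidation had medians slightly above 0. Of 24 mitochondrial genes 16 were higher, median 0.08, beside 0.02 in the reference, and none was past 0.5. Acads, a short-chain dehydrogenase gene, was at 70.0 CPM and 96.4 CPM, a ratio of 0.46 (0.41 to 0.51) beside 0.40, and Acaa2, for the last step of the spiral, at 244 CPM and 331 CPM, a ratio of 0.44 beside 0.16. Etfa, which passes the electrons on, was at 392 CPM and 308 CPM, a ratio of -0.35 beside -0.33. Of 25 peroxisomal genes 16 were higher, median 0.08 beside -0.13.

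Among these peroxisomal genes Nudt19, a hydrolase gene for coenzyme A esters, was the only one past 0.5. It was at 359 CPM in the control and 515 CPM in the KAP library, a ratio of 0.52 (0.50 to 0.54), and at 108.9 CPM and 108.8 CPM in the reference, a ratio of 0.00. Acaa1a had a ratio of 0.44 and Crat 0.32, with 0.20 and 0.30 in the reference. Ehhadh, the bifunctional enzyme gene, was at 185.0 CPM and 137.2 CPM, a ratio of -0.43 beside -1.10. Of the genes that PPARA controls 7 of 16 were higher, median -0.03. Ppara itself was at 32.7 CPM and 39.1 CPM, a ratio of 0.26, and its coactivator Ppargc1a, a TFEB target in other tissues, at 101.2 CPM and 80.8 CPM, a ratio of -0.32 beside -0.23 in the reference.

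Nuclear genes of oxidative phosphorylation were higher in 62 of 78 cases, with a median of 0.09, and this median was 0.09 in the reference as well. Uqcr11 of complex III was at 533.5 CPM and 760.9 CPM, a ratio of 0.51 beside 0.46, and Ndufc1 of complex I at 405.6 CPM and 539.2 CPM, a ratio of 0.41 beside 0.33. Citrate cycle genes had a median of -0.02, with Sdhd at -0.34 beside -0.35. Gluconeogenesis, a task of the proximal tubule, had 12 of 13 genes higher, median 0.19 beside 0.06. Fbp1 was at 798.2 CPM and 1015 CPM, a ratio of 0.35, and Pck1, for the rate-limiting enzyme, at 742 CPM and 933 CPM, a ratio of 0.33 beside -0.13.

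Genes of segments and of androgen action differed too. Slc5a2, the glucose transporter gene of the first segment, was at 329 CPM and 479 CPM, a ratio of 0.54 (0.52 to 0.56), but at 18.5 CPM and 29.9 CPM in the reference its ratio was 0.69, higher than in the gate. The organic anion transporter genes Slc22a8 and Slc22a6 had ratios of 0.46 and 0.36, beside 0.33 and 0.11. The list of 20 transporters of S1 and S2 had a median of 0.03. Of 9 measured genes of S3 and the late tubule, 8 were lower, median -0.24, with Slc5a1 at 31.0 CPM and 19.7 CPM, a ratio of -0.66, Slc5a8 at 178.8 CPM and 122.2 CPM, a ratio of -0.55, and Slc6a18 at -0.36. Within the Slc7a13 arm, the last-segment barcodes, 9 of 10 S3 genes were lower, median -0.30. With the arms weighted as in the control the median over the gate was -0.23. In Kap-low barcodes 3 of 5 were higher, median 0.13, and in the aged gate 4 of 8, median 0.10.

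Androgen-dependent genes had 8 of 11 members higher, 3 of them past 0.5, with a median of 0.38. In the reference 1 of 5 was higher, median -0.31. The list's summed level went the other way, from 43639 CPM in the control to 39581 CPM in the KAP gate, most of it Kap itself at 40890 CPM and 36147 CPM. The fatty acid hydroxylase gene Cyp4a12a was at 10.8 CPM and 48.6 CPM, a ratio of 2.17 (2.06 to 2.28), the highest of the genes named from the lists, and it was 2.42 in the reference, from 0.536 CPM to 2.88 CPM. Cyp2j13 was at 92.5 CPM and 127.4 CPM, a ratio of 0.46, and the organic anion transporter gene Slco1a1 at 122.4 CPM and 167.9 CPM, also 0.46, but -0.04 in the Slc34a1 arm alone. Odc1, the first enzyme of polyamine synthesis and a classic androgen target of the mouse kidney, was at 531.0 CPM and 840 CPM, a ratio of 0.66 (0.64 to 0.68). In the aged gate 10 of 10 measured members of the list were higher, median 0.46, beside 2 of 5 in the aged reference, median -0.02. Androgen level and sexual maturity of the mice were not measured and cannot be told apart from genotype here.

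Several genes parted with the Kap split. This split is also one of segments. In the young control Slc5a2, of the first segment, was at 57.4 CPM in Kap-high and 802 CPM in Kap-low barcodes. Nudt19 was there at 525 CPM and 71.5 CPM. Differences between the 2 sides were not separated from segment. In Kap-high barcodes 86 of 6716 genes (1.28%) were past 0.5 upwards and 224 (3.34%) downwards, and in Kap-low barcodes 63 of 7372 (0.855%) and 170 (2.31%). Odc1 had a ratio of 0.94 in Kap-high barcodes against 0.12 in Kap-low ones, with 0.10 in the reference. Nudt19 had 0.68 against 0.14. The largest differences of Kap-high minus Kap-low ratios were downwards, at -11.1 for S100g, -7.85 for Calb1 and -5.47 for Mt1. Tmsb4x at -1.76 and Ccnd1 at -1.45 also lay downwards. In Kap-high barcodes stored S100g entries at 0 were 87.6% in the control and 99.9% in the KAP library. For Calb1 they were 74.3 and 99.9%, and for Mt1 41.1 and 98.5%. How much of these differences the background correction or doublets carry was not tested. The genes that follow were chosen from the largest differences upwards, after their values were seen. Slc5a2 had ratios of 1.01 and 0.28 beside 0.69 in the reference, and its stored entries at 0 in Kap-high barcodes were 9.71 and 29.8%. The ratios were, for G0s2, an inhibitor of the main triglyceride lipase, 0.55 and -0.13, for the stress cytokine gene Gdf15 0.75 and 0.17, and for the amino acid transporter gene Slc6a19 0.26 and -0.30. In the reference G0s2 had -0.28, Gdf15 0.27 and Slc6a19 -0.26. Counting entries at 0 as 1 left Odc1 at 0.92 and 0.10 and Nudt19 at 0.65 and 0.25.

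**Figure D4:**
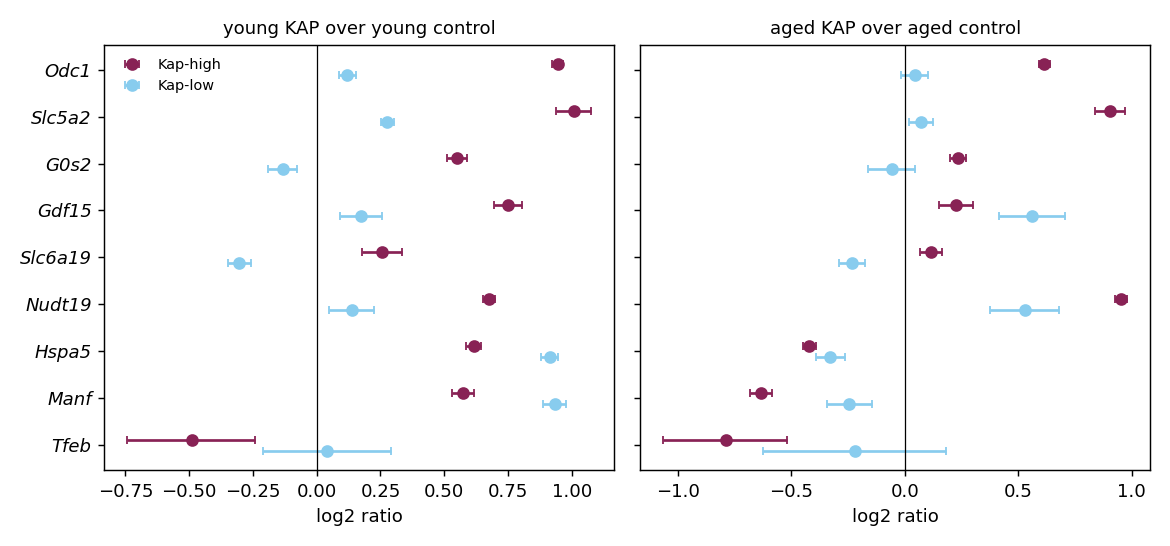
Log2 ratios of KAP over control in Kap-high and Kap-low barcodes of the proximal tubule gate for 9 genes, in the young pair (left) and the aged pair (right), with exact counting intervals. Odc1 parts the Kap-high from the Kap-low barcodes in both pairs (0.94 against 0.12 and 0.62 against 0.04), while Hspa5 and Manf lie above 0 in the young and below 0 in the aged pair.

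The aged pair, 2 other libraries, was read in the same way with 2931 control and 2629 KAP barcodes. There Tfeb was at 7.04 CPM and 4.60 CPM, a ratio of -0.61 (-0.84 to -0.39), and -0.39 (-0.58 to -0.19) with entries at 0 counted as 1. In aged Kap-high barcodes the Tfeb ratio was -0.79 (-1.06 to -0.52), beside -0.49 (-0.74 to -0.24) in the young, and the difference between the ages was not tested. Over 2296 genes the gate's ratios in the young and aged pairs had a Pearson correlation of 0.15, and in Kap-high barcodes 0.24 over 2234 genes. The difference of Kap-high minus Kap-low ratios correlated at 0.34 over 2038 genes. Within the young pair, the gate's ratios and those of the reference gate correlated at 0.66 over 1841 genes. Those of young Kap-high and young Kap-low barcodes correlated at 0.44 over 2140 genes. These are descriptions across genes, which are not independent. Transcripts of other segments were not left out, and their part in these correlations was not tested.

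For Odc1, Slc5a2, G0s2, Slc6a19 and Nudt19 the Kap-high ratio was above the Kap-low ratio in both pairs. In aged Kap-high barcodes the ratio was 0.62 for Odc1, 0.90 for Slc5a2, 0.23 for G0s2, 0.12 for Slc6a19 and 0.95 for Nudt19, and in aged Kap-low barcodes 0.04, 0.07, -0.06, -0.23 and 0.53. Gdf15 was the exception of the 6, with 0.22 and 0.56. Other genes of the young split kept their sign in the aged pair in some cases and not in others. Kap-high minus Kap-low was -7.85 in the young and 0.31 in the aged pair for Calb1. It was 0.54 and -0.06 for Stmn1. For Mt1 it was -5.47 and -0.16, of the same sign but far smaller in the aged pair. Spp1, at -2.96 and -0.81, Slc12a1, at -1.69 and -0.91, and Wnk1, at -0.86 and -0.70, also kept their sign. S100g, at -11.1 and -1.10, and Klk1, at -3.58 and -1.96, kept their sign, but in the aged pair on few barcodes. Among aged Kap-high barcodes S100g was above 0 in 11 of the control and 4 of the KAP library, and Klk1 in 20 and 8. Spp1 was above 0 there in 556 and 183, and its stored entries at 0 were 74.1 and 90.4%. Over the whole aged gate Nudt19 had a ratio of 0.94, Odc1 0.53 and Slco1a1 1.71, against 0.52, 0.66 and 0.46 in the young. Cyp4a12a had 0.60 in the aged and 2.17 in the young gate. The stress lists were not alike in the young and aged pairs. The unfolded protein response had a median of -0.27 in the aged gate with 1 of 15 genes higher, beside -0.15 with 2 of 15 higher in the aged reference, and in the aged gate Hspa5 and Manf had ratios of -0.40 and -0.56. The 40 lysosomal hydrolases had a median of -0.04 with 13 higher, beside 0.11 with 24 higher in the young. In the aged reference they were lower still, with a median of -0.11 and 6 of 39 higher.

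The other lists gave small medians or rested on few genes. Lipid droplet genes had 9 of 11 members higher, median 0.16, cholesterol synthesis 12 of 19, median 0.05, and apical endocytosis 6 of 11, median 0.06. Mitochondrially encoded subunits of oxidative phosphorylation had 5 of 13 higher, median -0.02, which turned to 0.14 at a mitochondrial share of at most 20% and to 0.042 as means over barcodes. In the reference 11 of 13 were higher, median 0.10. Of genes of mitochondrial biogenesis 4 of 9 were higher, median -0.02. Clock genes had 2 of 10 higher, median -0.08, and interferon and MHC class I genes 4 of 6, median 0.07. Both measured metallothionein genes were lower in the gate, median -0.29, but in Kap-low barcodes 2 of 3 were higher, median 0.17, and in the reference, where they are far more abundant, 3 of 4, median 0.28. Mt1 was at 147.4 CPM and 114.5 CPM in the gate, a ratio of -0.36, -0.12 with entries at 0 counted as 1, and 0.017 without the highest doublet scores. Stored Mt1 entries at 0 were 28.3% in the control and 73.9% in the KAP gate.

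Transcripts of other cells moved with the groups. The 6 thick limb genes summed to 1084 CPM in the control and 724 CPM in the KAP gate and the 8 distal genes to 469 CPM and 256 CPM. The tubular injury gene Spp1, which distal segments also express, was at 934.8 CPM and 633.3 CPM, a ratio of -0.56, and its list had a median of -0.24, but 0.08 with entries at 0 counted as 1. Endothelial markers summed to 45.6 CPM and 70.5 CPM, immune markers to 28.3 CPM and 33.0 CPM, podocyte and mural markers to 64.4 CPM and 72.2 CPM and red cell genes to 207 CPM and 242 CPM, and none of the genes of these lists was at 0 in both libraries. Leaving out the barcodes in both gates gave 72 genes past 0.5 upwards and 129 downwards. The part of these transcripts in the other ratios was not tested.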

How the data were processed

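The libraries were single-cell 3′ gene expression libraries (10x Genomics, v3.1 chemistry). Per the submitters' processing notes, reads were processed with Cell Ranger 6.0.0 and Seurat 4.4.0 on build mm10. The authors corrected the counts for background RNA (SoupX), and the deposited values are these corrected whole-number UMI counts per gene and barcode, in which corrected entries remain as stored zeros. No gene annotation is named in the labels or the paper.

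Filters, gates and their limits are those stated with the results. Counts were summed per library and gate and divided by the summed UMIs. The interval of a log2 ratio is the exact binomial (Clopper-Pearson) interval of the KAP count among both counts, at 95%, for counting error only. The ratio and interval code was tested on simulated data. Genes with a mean of at least 10 CPM entered counts and medians. Doublets were kept, and removal of the highest Scrublet scores (scanpy 1.11.5, at 0.8% per 1000 barcodes, 971 and 574 young barcodes) was an alternative. Summed UMIs of the gate were 77992513 and 67225913.

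Named genes were the MiT/TFE family, the 12 highest and 12 lowest ratios at 50 CPM or more, the 8 largest differences from the reference each way, and from each of 35 lists up to 4 genes at 20 CPM or more. A few genes that this rule takes are not reported here. The members and lists were chosen with earlier results of these data known. Statistics used scipy 1.17.1 and numpy 2.4.6 in Python 3.11.15, and plots matplotlib 3.10.9.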

Additional observations from a re-analysis of the deposited data

Results flagged for a closer look

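The heat shock list was higher in the young KAP library, with a median log2 ratio of 0.51 and all 12 genes higher, and lower in the aged KAP library, with a median of -0.12 and none of 11 measured genes higher. The same turn was seen outside the proximal tubule, since in the reference gate the list had a median of 0.21 in the young pair, with 11 of 12 genes higher, and -0.26 in the aged pair, with 1 of 12 higher. This difference between the ages was not tested, since each condition is 1 library.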

How the results depend on the processing

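No paired analysis was possible because each condition has 1 library and the labels give no replicate numbers, and no library could be left out. Counting stored zeros as 1 moved the Tfeb ratio to -0.0041 in the gate and -0.16 in Kap-high barcodes, the genes past 0.5 to 98 higher and 79 lower, the tubular injury median to 0.083 and that of immediate early genes to 0.029. A mitochondrial share of at most 20% gave Tfeb -0.43, 441 lower genes, medians of 0.032 for mitochondrial fatty acid oxidation, 0.042 for nuclear OXPHOS, 0.42 for heat shock, 0.14 for mitochondrial OXPHOS and -0.0045 for apical endocytosis, and ratios of -0.088 for Tfe3 and -0.0056 for Nrbf2. The Slc7a13 arm alone gave Tfeb -0.64, 138 higher genes, medians of -0.019 for hydrolases, 0.055 for nuclear OXPHOS, 0.59 for heat shock and -0.053 for apical endocytosis, and ratios of 0.26 for Mitf, -0.055 for Ctsa and -2.10 for Car3. The Slc34a1 arm alone gave Slco1a1 -0.044. A total without mitochondrial and gate genes gave 237 lower genes and medians of 0.054 for nuclear OXPHOS and -0.0057 for apical endocytosis. Means over barcodes gave 0.061 for nuclear OXPHOS and 0.042 for mitochondrial OXPHOS. Leaving out the highest doublet scores gave S100g 0.30 and Mt1 0.017. A minimum of 1 CPM gave 210 and 883 genes past 0.5, one of 50 CPM 27 and 33 and a heat shock median of 0.38, and a limit of 1 gave 7 and 46. The causes were not tested, except that fewer genes enter at a higher minimum and fewer pass a higher limit. The gate at 10, barcodes in both gates left out, arms weighted alike and centring on the median gene moved none of the Tfeb ratios, counts and 5 main lists beyond their limits. With 639 and 480 Tfeb UMIs, counting error alone spans -0.37 to -0.03 on the log2 scale.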
